A study of Mus musculus with 118 samples.

Results

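The insulin-like growth factor (IGF) system was examined in somatostatin-expressing (SOM+) interneurons of mouse neocortex through 8 genes, which are the ligand Igf1, the receptors Igf1r, Igf2r and Insr, and the binding proteins Igfbp2, Igfbp4, Igfbp5 and Igfbp6. They are 8 of the 23998 gene symbols in the count table and were chosen by measured values of these cells, since Igf1 had one of the largest area differences in L5. Every value below is therefore a description and none was tested. The cells came from SOM-Cre/Ai9 mice, in which Cre under the Sst gene switches on the red protein tdTomato, so that a red cell expresses Sst or did so earlier in its life. Single cells in L4 or L5 of the primary visual (V1) or primary somatosensory (S1) cortex of adult mice were recorded with a patch pipette, and their aspirated contents were sequenced (Patch-seq). All groups carried the same alleles, and no group received a treatment.

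IGF-1 is a secreted peptide that supports neuronal growth, survival and synapse maturation, and cortical interneurons are among its known sources in the brain. It acts through the tyrosine kinase IGF1R and, more weakly, through the related insulin receptor, which signal through insulin receptor substrates to the PI3K, AKT and mTOR branch and to the RAS and MAPK branch. IGF2R binds IGF-2 and carries it to lysosomes, and the secreted IGF binding proteins hold the ligands and so limit or prolong their action.

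In L4, 42 of 44 V1 cells and 34 of 39 S1 cells were kept, and in L5 17 of 19 V1 cells and 16 of 16 S1 cells. A kept cell had at least 1500 genes with a count, no more counts of the excitatory marker Slc17a7 than of Gad1 plus Gad2, and at least 1 Sst count. All 9 genes of the SOM interneuron list (Sst, Gad1, Gad2, Slc32a1, Lhx6, Sox6, Satb1, Elfn1, Grin3a) had reads in each of the 4 groups, although Sst, Gad1 and Gad2 enter the rule for keeping cells. Of the other genes, Sox6 was read least often in L5, in 11 of 17 V1 cells and 12 of 16 S1 cells, and Slc32a1, the vesicular GABA transporter, in 15 of 17 and 16 of 16. The kept cells had between 97904 and 3295232 counts, with a median of 1111833. Animals are not named in the labels, so the cells of an area and layer count as 1 sample. The spread between samples was described by the date in the label, taken as the recording day. There were 9 such days. A gap between the dates was used here to divide them into 2 series, which the labels do not name. All L5 cells fell on days 3 to 6 of the first series. The authors used 6 mice for Patch-seq, so the 9 days cannot all be separate animals.

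The 8 genes lie apart on 7 chromosomes, with Igfbp2 and Igfbp5 as the only neighbours. In the GENCODE M21 annotation of GRCm38, Igf1 (ENSMUSG00000020053) spans chr10:87858265-87937042 on the plus strand, Igf1r (ENSMUSG00000005533) chr7:67952827-68233668 on the plus strand, Igf2r chr17:12682406-12769664 on the minus strand and Insr chr8:3122061-3279617 on the minus strand. Igfbp2 (chr1:72824503-72852474, plus strand) and Igfbp5 (chr1:72857932-72874884, minus strand) point towards each other with 5457 bases between them. Igfbp4 lies at chr11:99041244-99054392 and Igfbp6 at chr15:102144362-102149511, both on the plus strand. Reads were counted over exons, and no exon of the 8 genes overlapped one of another gene in this annotation.

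The promoters of the ligand and of its receptor are shown because they differ most in CG content among the 7 members with an entry. Insr had no entry, and the choice of genes did not use CG content. Each promoter shown is the RefSeq window (GRCm38.p6) from 250 bases before to 50 bases after a transcript start, written 5′ to 3′ on the plus strand with each CG in capitals. The Igf1 window is chr10:87860861-87861160 and the Igf1r window chr7:67952007-67952306. The Igf1 window thus lies inside the GENCODE span given above, and the Igf1r window lies before the start of its span.
Igf1: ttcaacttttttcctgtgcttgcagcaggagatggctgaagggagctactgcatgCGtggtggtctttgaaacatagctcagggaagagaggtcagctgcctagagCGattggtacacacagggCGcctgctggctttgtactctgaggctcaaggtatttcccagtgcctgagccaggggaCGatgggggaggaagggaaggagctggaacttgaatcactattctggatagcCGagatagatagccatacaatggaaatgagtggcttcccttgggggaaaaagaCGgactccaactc
Igf1r: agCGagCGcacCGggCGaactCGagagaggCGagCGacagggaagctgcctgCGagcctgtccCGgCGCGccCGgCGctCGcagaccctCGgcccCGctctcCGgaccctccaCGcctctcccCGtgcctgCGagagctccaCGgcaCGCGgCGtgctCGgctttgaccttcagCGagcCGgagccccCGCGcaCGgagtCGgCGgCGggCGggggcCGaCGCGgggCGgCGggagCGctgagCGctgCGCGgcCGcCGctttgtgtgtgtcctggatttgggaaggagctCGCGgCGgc
The Igf1 window held 6 CG and the Igf1r window 48, beside a median of 7 over 32851 RefSeq promoters, of which 43.6% had fewer CG than Igf1 and 98.8% fewer than Igf1r. Among the other members with an entry, Igf2r had 34 CG, Igfbp4 27, the Igfbp2 windows 18 and 14, Igfbp5 10 and Igfbp6 8. The letters TATAAA, searched on both strands, stood in the windows of Igfbp4 and Igfbp6 and in 13.6% of all promoters, which describes these windows only. These data hold no measurement on the promoters themselves.

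Igf1 and Insr were the most widely detected of the 8 genes. Among all kept cells, 82 had at least 1 Insr count, 73 an Igf1 count, 53 an Igf1r count, 52 an Igfbp4 count and 49 an Igf2r count. Igfbp6 was read in 24 cells, Igfbp2 in 10 and Igfbp5 in 8. A cell held reads of a median of 3 of the 8 genes, with a range from 0 to 6, and 5 cells held none. Shares of cells are given with 95% exact (Clopper-Pearson) intervals, which treat cells as independent draws and hold no spread between animals or days.

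**Figure D1:**
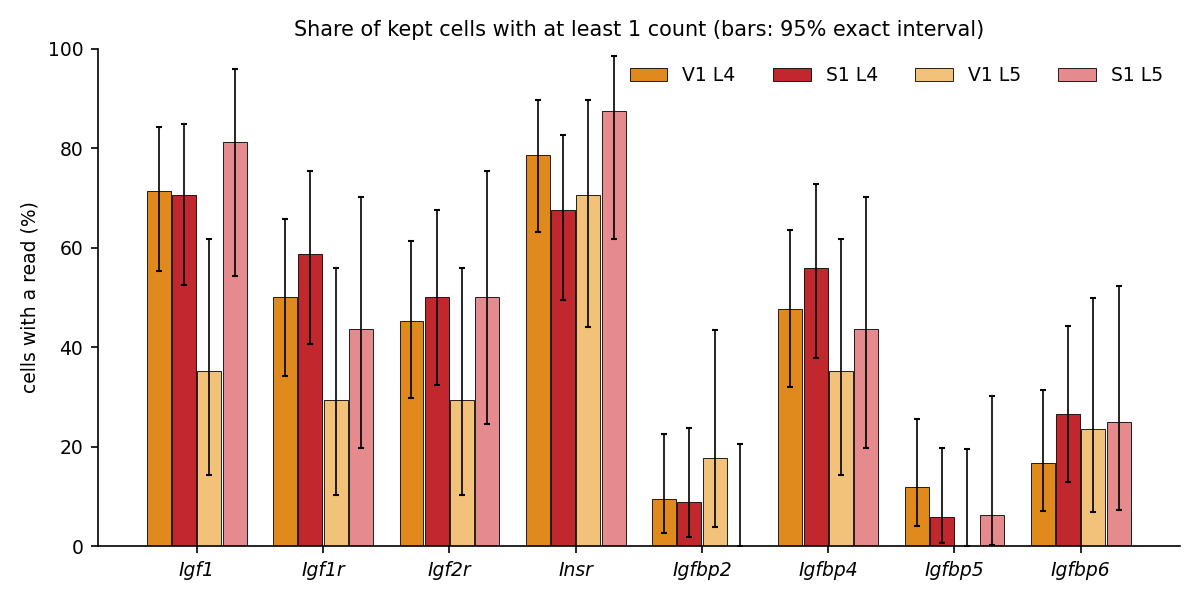
Share of kept cells with at least 1 count of each gene (y axis, percent) in the cells of V1 and S1 in L4 and L5, with 95% exact intervals as error bars. Igf1 was read in 35.3% of V1 L5 cells and in 70.6% to 81.2% of the cells of the other groups, whereas Igfbp2 and Igfbp5 stayed below 20% in every group.

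Igf1, the ligand, was read in most cells of both areas in L4 and of S1 in L5, and in the minority of V1 L5 cells. In V1 L4 30 of 42 cells had a count (71.4%, 55.4% to 84.3%), with a median of 54.9 CPM (the count scaled to an equal total in every cell) and a highest value of 879 CPM. In S1 L4 24 of 34 cells had one (70.6%, 52.5% to 84.9%), with a median of 31.7 and a highest value of 610 CPM. The L4 groups thus overlapped over nearly their whole range.

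In V1 L5 6 of 17 cells had an Igf1 count (35.3%, 14.2% to 61.7%), so that the median was 0 CPM and the highest value 177.4 CPM. In S1 L5 13 of 16 cells had one (81.2%, 54.4% to 96.0%), with a median of 174.4 and a highest value of 584 CPM. Cells at 0 were present in both groups, while 7 S1 L5 cells lay above the highest V1 L5 cell and 1 V1 L5 cell lay above the S1 L5 median. Among cells with a read, the median level in L5 was 54.1 CPM for V1 and 178.9 CPM for S1, and in L4 it was 87.9 CPM for V1 and 79.5 CPM for S1. Igf1 was thus both read in more cells and higher in those cells in S1 L5 than in V1 L5. Pooled over the counts of a group, which weights deep cells more, Igf1 stood at 27.6 CPM for V1 L5 cells (95% Poisson interval 25.3 to 30.02) and at 138.99 CPM for S1 L5 cells (133.8 to 144.3), the intervals covering counting error only. Reads carried no molecular identifier, so several may come from 1 molecule.

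**Figure D2:**
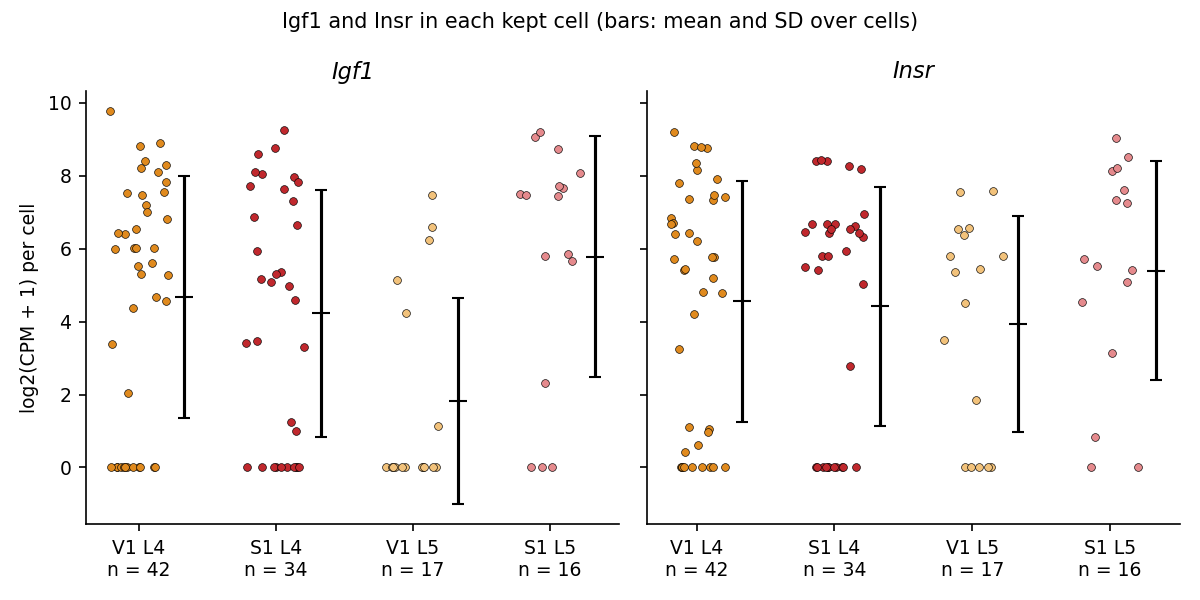
Igf1 (left) and Insr (right) in each kept cell as log2(CPM + 1), 1 point per cell, with the mean and SD over cells beside each group. V1 L5 cells lie mostly at 0 for Igf1 and S1 L5 cells mostly above 5, while the 4 groups overlap for Insr.

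On the scale of mean log2(CPM + 1), the S1 minus V1 difference of Igf1 in L5 was 3.97, from means of 5.78 ± 3.31 (SD over 16 cells) and 1.81 ± 2.83 (17 cells). Within days 3, 4, 5 and 6 the differences were 5.90, 2.52, 4.22 and 1.84, a mean of 3.62 ± 1.82 (SD over 4 days). The S1 mean was the higher one in each of the 4 days, but the gene was chosen on these differences, so neither the signs nor the SD are support for them. The difference over all cells ranked second among the 6402 genes past the count filter (32 or more counts in 10 or more cells of the groups compared), beside a median over these genes of 0.24, and its rank is part of why the gene was chosen.

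The cells behind each day were few. V1 L5 had Igf1 reads in 2 of 5, 2 of 3, 1 of 4 and 1 of 5 cells on days 3 to 6, and S1 L5 in 3 of 3, 4 of 5, 5 of 5 and 1 of 3. Day 6, with 1 S1 cell above 0, gave the smallest difference. With each cell thinned to 250000 reads, Igf1 was read in 6 of 15 V1 L5 cells and 12 of 15 S1 L5 cells, and the difference was 3.44. Gene number moved with the groups, with a mean of 6952 ± 1624 genes per cell (SD) for S1 L5 against 6272 ± 1799 for V1 L5. The median depth was 1119171 counts for S1 L5 and 1066008 for V1 L5. The part of gene number and depth in the result was not tested. In cells with at least 4000 genes the difference was 3.50.

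Igf1 is also a known product of microglia, so the 8 microglia markers (Cx3cr1, P2ry12, Tmem119, C1qa, C1qb, C1qc, Csf1r, Ctss) were set beside it. Their summed pooled level in L4 was 283 CPM for V1 and 229 CPM for S1, and in L5 630 CPM for V1 and 178.6 CPM for S1. The level per L5 cell ranged from 0 to 4017 CPM for V1 and from 0 to 1185 CPM for S1. All 8 markers had reads in V1 L5 and 7 of 8 in S1 L5, where P2ry12 was at 0. The pooled sums rest on a few cells, since the median per L5 cell was 25.3 CPM for V1 and 15.98 CPM for S1. Among cells with no read of the list, Igf1 was read in 6 of 7 S1 L5 cells and 2 of 4 V1 L5 cells, and the difference was 3.43.

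Other marker lists had, like Igf1, a higher median per cell in S1 L5 than in V1 L5. The oligodendrocyte list (6 markers) stood at a pooled 698 CPM in S1 L5, with a median per cell of 312 and a range from 0 to 5445 CPM. In V1 L5 it stood at 218 CPM, with a median of 111.2 and a range from 0 to 3870 CPM, and Mog and Cldn11 were at 0. The 6 markers of other interneurons (Pvalb, Vip, Lamp5, Ndnf, Sncg, Cck) had reads in 13 of 16 S1 L5 cells, with a median of 51.3 CPM and a range from 0 to 613 CPM. They had reads in 7 of 17 V1 L5 cells, with a median of 0 and a range from 0 to 589 CPM, and their pooled levels of 73.7 and 68.8 CPM lay close together. Sncg was at 0 in both groups. The astrocyte list (7 markers) stood at a pooled 148.8 CPM for S1 and 136.3 CPM for V1, with medians per cell of 58.9 and 0 CPM. The part of microglia, these cell types and carried-over RNA in the Igf1 difference was not tested.

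In L4 the area difference of Igf1 was -0.45, from means of 4.22 ± 3.37 (SD over 34 S1 cells) and 4.67 ± 3.32 (42 V1 cells). Within days 2, 3, 5, 7 and 8 it was -1.95, -3.43, 7.18, -0.14 and -5.62, with an SD over days of 4.89 that is larger than the difference. The L5 area difference lay 4.41 above that in L4, which was not tested because each group is 1 sample. Between layers, the L5 minus L4 difference of Igf1 was 1.56 in S1 (4.12, 0.53 and -1.09 within 3 days, SD 2.67) and -2.86 in V1 (-5.22 and 1.87 within 2 days, SD 5.01). Neither exceeded its spread over days, and the means over all cells also take in L4 cells of the second series, which has no L5 cells.

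**Figure D3:**
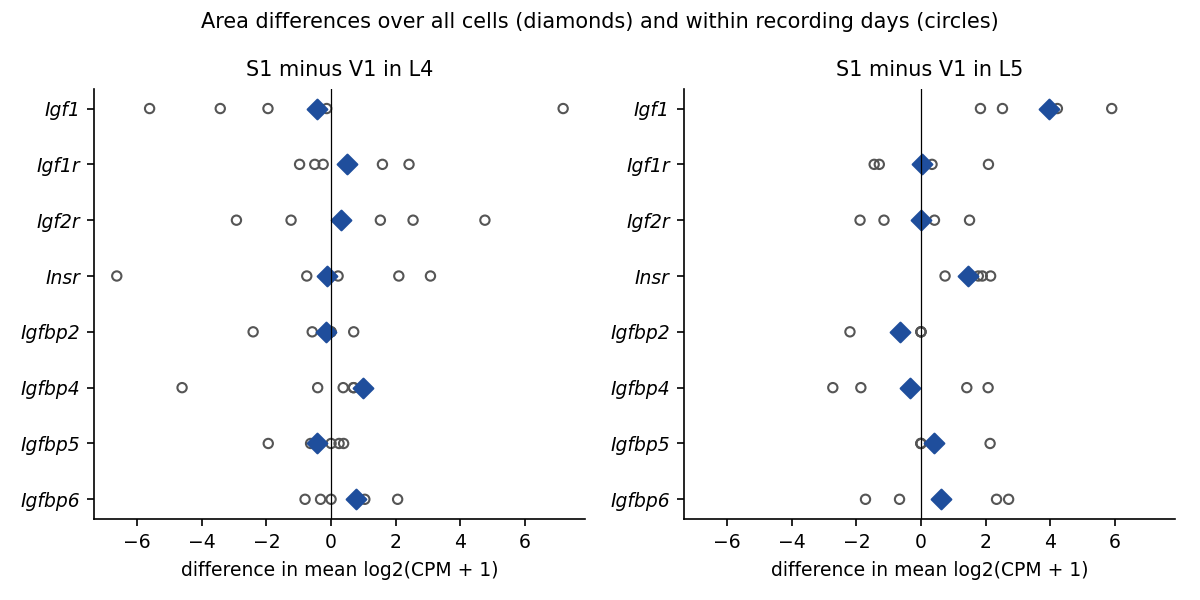
S1 minus V1 difference in mean log2(CPM + 1) for each of the 8 genes in L4 (left) and L5 (right), over all kept cells (diamonds) and within each recording day with at least 2 kept cells of each group (circles). In L5 all 4 circles of Igf1 and of Insr lie above 0, while the circles of every gene in L4 lie on both sides of 0.

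A gene was called between groups when its difference was at least 1 in size and had the same sign in every such day. In L5, 2 of the 8 genes were called between areas, Igf1 and Insr, both higher in S1. Of the 6402 genes past the count filter, 12.7% were called, and 3 of the 8 genes (Igf1, Insr and Igfbp4) passed that filter. In L4, 5 of the 8 passed the filter and 0 were called between areas, where 3.2% of 9201 genes were called. Between layers, 1 of the 8, Igf1r, was called in S1, where 12.2% of 8147 genes were called, and 0 in V1, where 16.4% of 8396 were. With so few genes, and with the choice resting on the L5 area values, nothing is read from these counts. The median difference over the 8 genes was 0.08 for the areas in L4, 0.21 for the areas in L5, -0.21 for the layers in S1 and -0.62 for the layers in V1, beside 0.01, 0.24, 0.28 and 0.03 over all genes past the filter. These medians are not like for like, because 3 to 5 of the 8 genes passed that filter.

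**Figure D4:**
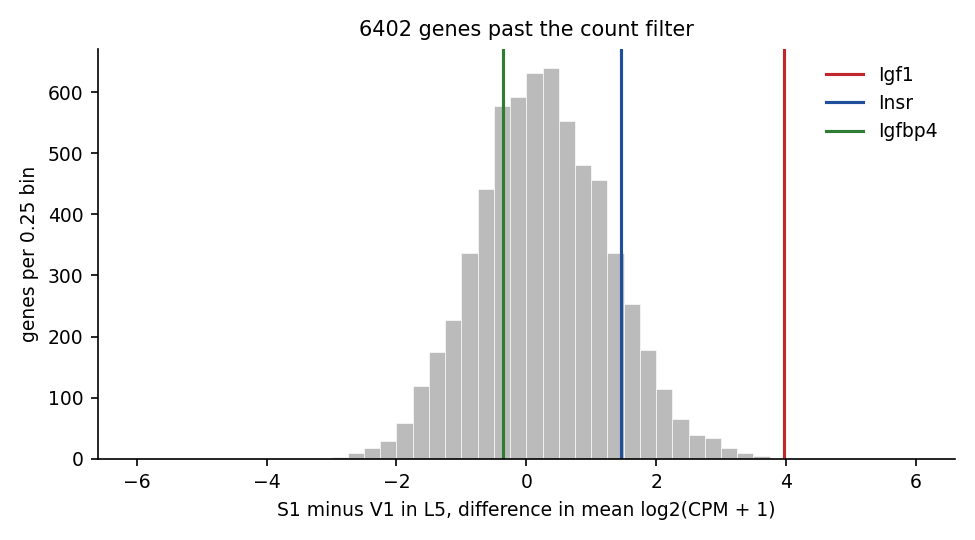
Number of genes (y axis) by S1 minus V1 difference in L5 in mean log2(CPM + 1), in bins of 0.25 (x axis), for the 6402 genes past the count filter. Igf1 at 3.97 lies in the upper tail, Insr at 1.46 and Igfbp4 at -0.35 lie nearer the centre.

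Insr, the insulin receptor, was also higher in S1 than in V1 in L5, by a smaller difference than Igf1. In L4 it was read in 33 of 42 V1 cells (median 47.0, highest 591 CPM) and 23 of 34 S1 cells (57.4 and 344 CPM). In L5 it was read in 12 of 17 V1 cells (40.3 and 189.8 CPM) and 14 of 16 S1 cells (48.0 and 525 CPM). The medians lay close together, and 5 S1 L5 cells lay above the highest V1 L5 cell. The L5 area difference was 1.46, from means of 5.39 ± 3.01 in S1 and 3.93 ± 2.95 in V1. It was 2.16, 1.77, 1.90 and 0.75 within days 3 to 6, with an SD of 0.62.

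The size of the Insr difference depended on the scale. It was 0.97 with a pseudocount of 10, 0.92 with thinned cells, 0.24 between the medians over cells and 0.82 in cells without a microglia read, each below the size required for a call. In L4 the area difference was -0.13 with an SD over days of 3.80. Between layers, Insr was 0.98 higher in L5 of S1, just under the size required, with 1.90, 1.62 and 4.41 within days 3 to 5 (SD 1.54). In V1 the layer difference was -0.62 (SD 4.91), with 2.82 and -4.12 within days.

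Igf1r, the main receptor for IGF-1, was lower in L5 than in L4 of S1. In L4 it was read in 21 of 42 V1 cells (median 0.587, highest 311 CPM) and 20 of 34 S1 cells (6.78 and 208 CPM). In L5 it was read in 5 of 17 V1 cells (0 and 116.5 CPM) and 7 of 16 S1 cells (0 and 76.3 CPM). The L5 minus L4 difference in S1 was -1.30, from means of 1.53 ± 2.13 (16 cells) and 2.83 ± 2.79 (34 cells). Within days 3, 4 and 5 it was -2.61, -2.0 and -1.99, with an SD of 0.36, so that L5 was lower in 3 of 3 days. It did not reach the size required on the scale of log2(RPKM + 1), where it was -0.65, or with a pseudocount of 10, where it was -0.70. In V1 the layer difference was -0.83 (SD 3.0 over 2 days), and the area differences were 0.50 in L4 (SD 1.46) and 0.03 in L5 (SD 1.66), all within their spread. In L5, where Igf1 differed most between areas, the Igf1r means of the areas were thus nearly equal, from 5 and 7 cells with a read.

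Igf2r, the receptor that clears IGF-2, was read in L4 in 19 of 42 V1 cells (highest value 249 CPM) and 17 of 34 S1 cells (277 CPM). In L5 it was read in 5 of 17 V1 cells (125.4 CPM) and 8 of 16 S1 cells (86.6 CPM). Low counts weighed on it more than on the other receptors, since 14 of its 49 cells had 1 to 4 counts, and with at least 5 counts required its share in S1 L5 was 18.8%, against 50% with 1 or more. Its area differences were 0.29 in L4 (SD 3.05) and 0.01 in L5 (SD 1.53). Its layer differences were -0.95 in S1 (SD 2.10) and -0.67 in V1 (SD 2.65). None exceeded the spread over days.

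Igfbp4, a secreted inhibitor of IGF action, was the member of its family read in most cells. In L4 it was read in 20 of 42 V1 cells (median 0, highest 312 CPM) and 19 of 34 S1 cells (28.6 and 469 CPM). In L5 it was read in 6 of 17 V1 cells (0 and 366 CPM) and 7 of 16 S1 cells (0 and 229 CPM). The few V1 L5 cells with a read were high, with a median of 178.5 CPM among them, against 43 CPM among the S1 L5 cells with a read. The area difference was 0.98 in L4, but the mean of the differences within 5 days had the opposite sign, -0.65 ± 2.26. On day 9, which held no V1 cells, Igfbp4 was read in 7 of 7 S1 L4 cells. Without day 9 the L4 area difference was 0.12, against 0.76 to 1.52 with any other single day left out. In L5 the area difference was -0.35 (SD 2.38), and the layer differences were -1.49 in S1 (SD 4.62) and -0.16 in V1 (SD 6.06).

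Igfbp6, a binding protein with a preference for IGF-2, was read in L4 in 7 of 42 V1 cells (up to 68.3 CPM) and 9 of 34 S1 cells (up to 111.3 CPM), and in L5 in 4 of 17 V1 cells (up to 23 CPM) and 4 of 16 S1 cells (up to 133.6 CPM). The S1 minus V1 difference was 0.78 in L4 (SD 1.15) and 0.63 in L5 (SD 2.19), both within the spread over days. Igfbp2, a binding protein prominent in the developing brain, was read in 4 V1 and 3 S1 cells of L4 and in 3 V1 and 0 S1 cells of L5, and the 0 of 16 S1 L5 cells allow a share of up to 18.8% by the limit of 3 cells and 20.6% by the exact interval. Igfbp5, which binds IGFs and extracellular matrix, was read in 5 V1 and 2 S1 cells of L4 and in 0 V1 and 1 S1 cells of L5, and the 0 of 17 V1 L5 cells allow up to 17.6% and 19.5% by the same limits. These 3 genes did not pass the count filter in any comparison, and the intervals of their shares overlapped between all groups.

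Levels of different genes were compared only in RPKM, which divides by transcript length. On the scale of mean log2(RPKM + 1), Igf1 led in V1 L4 (2.95, then Insr 2.46 and Igfbp4 2.30) and in S1 L5 (3.75, then Insr 2.95 and Igfbp4 1.87). Igfbp4 led in S1 L4 (3.19, then Igf1 2.66 and Insr 2.39) and in V1 L5 (2.24, then Insr 1.93 and Igf1 1.01). Neighbours in each of these orders differed by less than their SD over cells, which was 1.63 to 3.18 for these 3 genes. Igf1r and Igf2r lay below these 3 genes in all 4 groups, between 0.45 and 1.15.

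**Figure D5:**
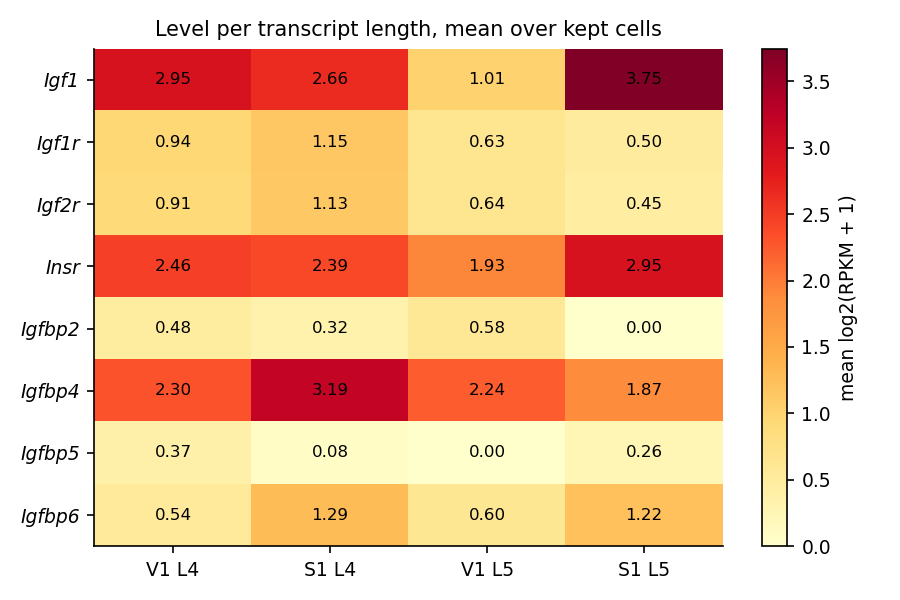
Mean log2(RPKM + 1) over the kept cells of each group (columns) for the 8 genes (rows), with darker colour for a higher level and the value in each field. Igf1 ranges from 1.01 in V1 L5 to 3.75 in S1 L5, and Igfbp2 and Igfbp5 stay below 0.6 in all groups.

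Most cells with the ligand also held reads of a receptor that can bind it. Of the 73 cells with an Igf1 read, 63 had an Igf1r or Insr read, as did 91 of all kept cells. Igf1r was read in 38 of the 73 cells (52.1%) and in 15 of the 36 cells without Igf1 (41.7%), but the groups differed in direction. In L4 it was read in 16 of 30 V1 cells with Igf1 against 5 of 12 without, and in 17 of 24 S1 cells against 3 of 10. Among L5 cells it was read in 1 of 6 V1 cells with Igf1 against 4 of 11 without, and in 4 of 13 S1 cells against 3 of 3. The pooled shares of Igf1r thus hide opposite orders in the layers. Insr was read in 55 of the 73 cells (75.3%) and 27 of the other 36 (75.0%), with either order among the 4 groups. Igf2r was read in 39 (53.4%) and 10 (27.8%), with the opposite order in V1 L5 (1 of 6 against 4 of 11). Igfbp2 was read in 3 (4.11%) and 7 (19.4%), and in 0 of the S1 L5 cells of either kind. The cells with Igf1 were somewhat deeper, with a median of 1168455 counts against 1026514, but had fewer genes, with a median of 6156 against 6530. The part of depth in these shares was not tested.

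Within L4, Igf1 was read in 14 of 20 V1 cells with and 16 of 22 without a count of Calb2, and in 16 of 23 S1 cells with and 8 of 11 without a count of Hpse. In the same S1 L4 cells, Igfbp6 was read in 9 of 23 with Hpse and 0 of 11 without, and Igfbp4 in 15 of 23 and 4 of 11, while Igf1r was read in 12 of 23 and 8 of 11, and Insr in 15 of 23 and 8 of 11. Of the 9 cells with Igfbp6, 4 were among the 7 S1 L4 cells of day 9, and all 7 of these day 9 cells had an Igfbp4 read. The part of depth and day in these splits was not tested.

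Across the kept cells the correlations of Igf1 with other genes were weak. By Spearman's rho of log2(CPM + 1) over the 9987 genes that passed the count filter in all kept cells, the nearest were Reln (0.37), 2610203C20Rik (0.36), Lama4 (0.36), A230050P20Rik (0.35) and Malat1 (0.35). The points share libraries and depth, and cells of 1 group are not independent. Only 1 of these 5 was among the 5 nearest with Pearson's r and 1 with group means removed, so the list is not stable. For Reln, the secreted protein reelin, rho was 0.25 in the 76 L4 cells and 0.65 in the 33 L5 cells. Each of these sets pools both areas, and with group means removed the rho of Reln over all kept cells was 0.28. Among the 8 genes themselves, the highest rho with Igf1 was 0.26, for Igf2r.

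The rest of the pathway was described with 58 further genes in 6 lists. Of these, 39 passed the count filter for areas in L4, 30 for areas in L5, 33 for layers in S1 and 36 for layers in V1. Their median differences were -0.08, -0.01, 0.29 and 0.32. In the same order, 1, 1, 1 and 2 genes were called higher and 0, 2, 3 and 5 lower. Of all genes past the filter, 3.2%, 12.7%, 12.2% and 16.4% were called in either direction. With so few pathway genes, nothing is read from these counts. Other ligands were nearly absent, with Igf2 read in 3 of the kept cells and Ins1 and Ins2 in 0.

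Igfbp3, the main carrier of IGF-1 in blood, was called higher in S1 L5 in both comparisons that used this group. In L5 it was read in 10 of 16 S1 cells and 5 of 17 V1 cells, and in L4 in 7 of 34 S1 cells and 19 of 42 V1 cells. Its difference was 1.96 between areas in L5 (SD over days 1.73) and 2.70 between layers in S1 (SD 1.57), comparisons that share the S1 L5 cells. In L4 its area difference was -1.35 (SD 1.86), not called.

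Irs2, a substrate that links both receptors to PI3K, was called lower in L5 than in L4 in both areas. It was read in 5 of 16 S1 L5 cells against 22 of 34 in S1 L4, and in 7 of 17 V1 L5 cells against 30 of 42 in V1 L4. The differences were -2.0 in S1 (SD 0.80 over 3 days) and -1.89 in V1 (SD 0.54 over 2 days). Pik3r3, a regulatory subunit of PI3K, was also called lower in L5 in both areas. Its differences were -1.69 in S1 (SD 2.19 over 3 days) and -1.57 in V1 (SD 2.19 over 2 days). In V1, Tsc1, a brake on mTOR, was called lower in L5, by -2.29 over all cells. Its differences within days had a mean of -1.87 and an SD of 0.07, from only 2 days. Between areas, Rictor, a subunit of mTOR complex 2 (-1.10, SD 0.35), and the MAPK kinase Map2k2 (-1.71, SD 1.82) were called lower in S1 L5, and the adaptor Grb2 was called higher in S1 L4 (1.03, SD 1.59). Each SD describes the differences within days, whose mean for Rictor was -1.29 over 4 days.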

How the data were processed

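RNA was read from single patched cells. The authors aligned reads to mm10 with STAR (2.4.2a in the submitters' processing notes) and deposited a table of read counts per gene, not normalized, and a table of RPKM values from RefSeq gene models. Both hold 24490 entries, and entries of 1 symbol were summed. Counts gave log2(CPM + 1), and RPKM the order of levels and 1 alternative scale.

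Groups came from the region and layer labels and days from label dates. With no animal named, each group is 1 sample, so no test, p-value or standard error was computed. Comparisons used genes with 32 or more counts in 10 or more cells and days with at least 2 kept cells of each group. Intervals are 95% exact, and a count of 0 allows up to 3. Thinning to 250000 reads used seed 1. The text names the 8 members, up to 3 called pathway genes per comparison with the largest difference, and the 5 genes most like Igf1. Some results under this rule are not reported here. The members and lists were chosen with earlier results of these data known. Alternatives were another pseudocount, normalization (edgeR TMM factors), filter, scale, series or day. The functions were tested on simulated data. Python 3.11.15, pandas 2.3.3 and SciPy 1.17.1 were used.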

Additional observations from a re-analysis of the deposited data

Results flagged for a closer look

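The 4 cells left out because they had no Sst count also held reads of the IGF system, a signal in cells outside the comparisons. Pooled over these cells, Insr was at 40.3 CPM (222 counts, 3 cells), Igf1r at 33.95 CPM (187 counts, 2 cells), Igfbp4 at 9.99 CPM (55 counts, 1 cell), Igf1 at 4.90 CPM (27 counts, 1 cell) and Igfbp6 at 1.82 CPM (10 counts, 1 cell). Igf2r, Igfbp2 and Igfbp5 had 0 counts in them. The paper describes 3 fast-spiking cells with no Sst reads, mapped to a Pvalb type and left out there. These fast-spiking cells are probably among the 4 cells here, since they also had no Sst reads and had passed the paper's quality filter. The cells were not matched singly, and some or all of the 4 cells may not be SOM+ interneurons.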

How the results depend on the processing

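Groups share recording days, and differences within days were used in place of a blocked test, since no result comes from a test. The L5 area difference of Igf1 was positive under every alternative run, from 2.39 with a pseudocount of 10 to 7.45 between medians over cells, and from 3.47 to 4.28 with each of the 4 days left out. Each alternative reused cells on which the gene was chosen, so the shared sign is not support for the difference. The number of the 8 genes called between areas in L5 fell from 2 to 1, Igf1, with a pseudocount of 10, thinned cells or a difference of at least 2. Of all 6402 genes, 5.97% were called with the pseudocount of 10, 13.9% with thinned cells and 12.7% in the main setting. In cells without a microglia read the number of the 8 was 2, but Igf1 and Igfbp4 (-2.61) rather than Igf1 and Insr. There, 3103 of the 6402 genes were called. In L4 the number rose from 0 to 1 in the second series (Igf1) and to 2 in cells without a microglia read (Igf2r and Insr), a setting chosen after seeing the data. In these 2 settings 21.3% and 33.5% of all 9201 genes were called, against 3.2% in the main one. Between layers in S1 the number was 2 (Igf1r and Insr) with a pseudocount of 0.1, TMM factors, thinned cells, at least 4000 genes, cells without Sst kept, the first series alone, the mean within days or a difference of at least 0.5. It was 0 with a pseudocount of 10, RPKM or a difference of at least 2, and 4 in cells without a microglia read, where 3274 of 8147 genes were called. With each day left out it ranged from 1 to 3, where up to 1827 of the 8147 genes were called. In V1 it ranged from 0 to 4, where up to 2363 of 8396 were. Nothing is read from these counts of members, since the number of all genes called moved with the setting. By median RPKM, Igf1 stood at position 3 in S1 L4, against 2 by the mean, and at position 2 in V1 L5, a tie at a median of 0 of all members but Insr, against 3 by the mean. Of the 5 genes most like Igf1, 1 was shared with Pearson's r and 1 with group means removed. Counts over all genes called also moved. With a pseudocount of 10 they were 77, 382, 382 and 489, and with a difference of at least 2 they were 51, 245, 253 and 291, for the areas in L4 and L5 and the layers in S1 and V1, against 294, 813, 997 and 1380. With a difference of at least 0.5 they were 503 for the areas in L4, 1536 for the layers in S1 and 2189 for those in V1. With the mean within days they were 533, 1772 and 3292 for the same comparisons. In cells without a microglia read, with fewer cells and days, they were 3083 for the areas in L4, 3103 for those in L5 and 3274 for the layers in S1. For the areas in L4 they were 195 with RPKM, 452 with at least 4000 genes, 1123 in the first series and 1960 in the second. With each day left out they reached 553, 1412, 1827 and 2363. The causes were not tested, beyond fewer days making a shared sign easier. Small groups, at most 12 cells of a group in a day, limit every value.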
